A study of Mus musculus with 18 samples.

Results

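Aminoacyl-tRNA synthetases are the enzymes that join each amino acid to its tRNA. The genes described here are 36 mouse genes for these enzymes, chosen by symbol from a table of 26599 genes. They comprise 20 genes of cytosolic enzymes and 16 genes of mitochondrial enzymes, which carry the suffix 2 in their symbols. All 36 symbols were found, each on 1 row of the table, and all 36 passed the filter of at least 1 FPKM in at least 2 libraries, so no member was left untested. The genes were picked by name, with no cutoff on a measured value, but with earlier results of these data known.

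The RNA came from MEL cells, a mouse erythroleukemia cell line that is arrested at an early erythroid stage. The day 5 group was grown for 5 days in medium with 2% DMSO, which drives the cells to make hemoglobin, and the day 0 group stands at the start of that course. Each day had 2 biological replicates, per the labels, and both groups came from the same line with no other agent named. Values are FPKM (fragments per kilobase of transcript, scaled to the size of the library), so levels of different genes can be compared per length, while the number of reads behind a value is unknown.

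In animal cells most proteins are made on cytosolic ribosomes, which draw on tRNAs charged by the cytosolic synthetases. A small set of proteins, all subunits of the respiratory chain and the ATP synthase, is made inside mitochondria, where a separate set of nuclear-encoded synthetases charges the tRNAs of the mitochondrial genome. Some enzymes serve both places: in mammals the glycyl and lysyl enzymes of both compartments come from the single genes Gars and Kars. Erythroid cells in differentiation make large amounts of globin. Day 5 against day 0 asks how the genes of the charging enzymes differ between cells after 5 days in DMSO and cells at the start. No day 5 group without DMSO was measured, so effects of DMSO and of 5 days in culture cannot be told apart.

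The 4 libraries held FPKM sums of 758150 to 787494 and 10227 to 10601 genes at 1 FPKM or more. Of 10 erythroid marker genes 8 rose on day 5. Their summed level was 30705 and 25949 FPKM in day 5 libraries, against 1927 and 1319 FPKM in day 0 libraries. Markers of other blood cells were mixed: the myeloid genes Csf1r, Cd14, Lyz2, Mpo, Elane and Emr1 and the lymphoid genes Cd3e and Cd3g were listed at 0 in all 4 libraries, and the 4 fibroblast genes summed to at most 0.293 FPKM. The 9 myeloid genes summed to 2.99 and 5.64 FPKM on day 5 and 56.7 and 102 FPKM on day 0, the day 0 sums being nearly all Sfpi1, the gene of PU.1 (2.37 and 3.55 FPKM on day 5, 55.4 and 101.01 FPKM on day 0). The 6 lymphoid genes summed to 0 and 3.83 FPKM on day 5 and 35.7 and 36.9 FPKM on day 0, nearly all of it Ptprcap, and the 4 mast cell genes to 0.382 and 0.376 FPKM on day 5 and 10.2 and 6.48 FPKM on day 0. The 5 megakaryocyte genes summed to 138 and 112 FPKM on day 5 and 57.4 and 18.2 FPKM on day 0, and of these Itga2b rose, with 104 and 92.8 FPKM on day 5 and 15.4 and 7.32 FPKM on day 0. The part of these other genes in the results on synthetases was not tested. In bulk RNA, fewer cells of a type and less RNA per cell cannot be told apart.

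After 5 days in DMSO 8 of the 20 cytosolic and 2 of the 16 mitochondrial synthetase genes had lower RNA levels. Of the 36 genes, 10 fell and 0 rose at a limma adjusted p under 0.05 over all 10736 genes tested. Without the adjustment 14 were lower and 1 higher at p under 0.05. Among all genes tested 7.81% were lower and 10.7% higher by the same rule. The 10 that fell were Gars, Rars, Kars, Farsb, Eprs, Tars, Mars and Sars of the cytosolic set and Tars2 and Yars2 of the mitochondrial set. In each of these 10 genes both day 5 libraries lay below both day 0 libraries. Over all 36 genes this was so for 20, while 5 lay above on day 5 and 11 overlapped, against 27% of all genes tested that lay below and 40.2% that lay above. The median log2 fold change (of FPKM + 1, day 5 over day 0) was -0.43 for the 36 genes and 0.15 for all genes tested. With any 1 library left out, 0 of the 36 genes passed in limma, and 10 to 13 were then lower at an unadjusted p under 0.05. No share of all genes stands beside the 10 to 13. After quantile normalization 6 fell, Eprs, Mars, Sars and Tars missing the threshold. With no filter on low values 2 fell (Gars and Farsb), and without limma's variance trend 4 fell.

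**Figure D1:**
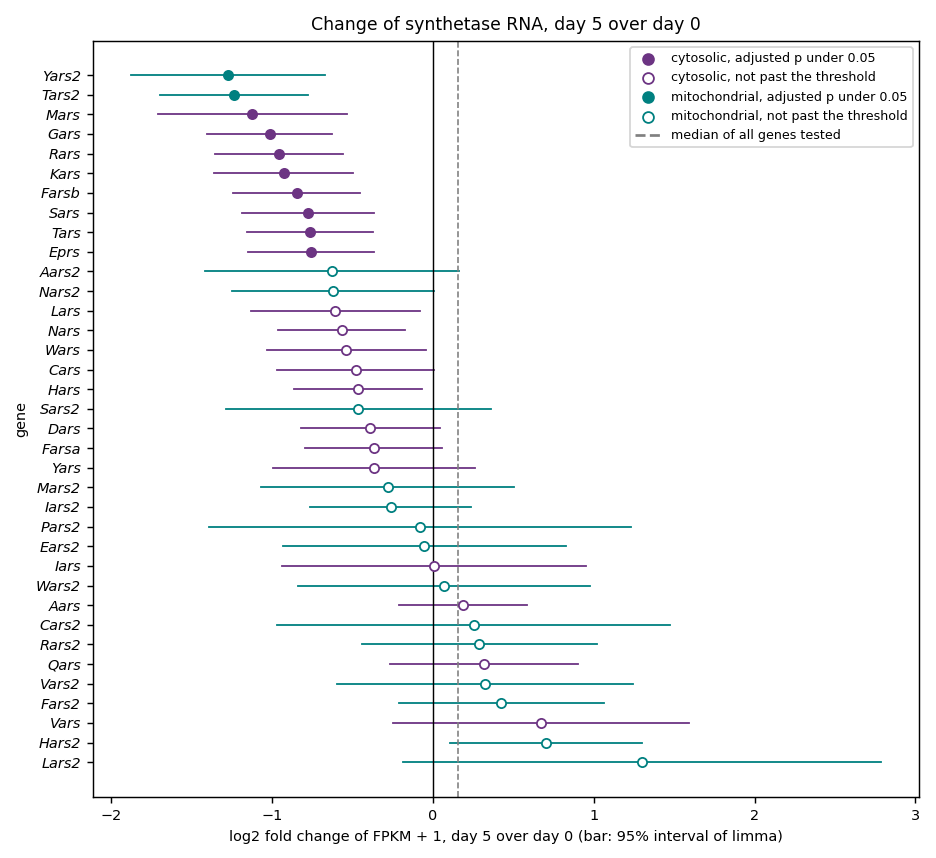
Log2 fold change of FPKM + 1, day 5 over day 0, for each of the 36 synthetase genes, with limma's 95% interval as a bar. Filled points passed an adjusted p of 0.05, the dashed line is the median of all 10736 genes tested (0.15), and the 10 filled points lie between -1.27 and -0.76.

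Expression level bears on how often a gene is called. All 20 cytosolic genes had a mean of at least 30 FPKM over the 4 libraries, and among the 3667 tested genes at that level 15.1% fell and 11% rose. Of the 20 cytosolic genes 8 fell, which is 40%. Of the mitochondrial genes 13 had a mean under 30 FPKM, and 1 of these 13 (Yars2) fell, against 4.03% of the 7069 tested genes at that level. The level of 30 FPKM was chosen after the values were seen.

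The 3 cytosolic genes with the largest decreases charge methionine, glycine and arginine tRNAs. Mars, for the methionyl enzyme that also charges the initiator tRNA, had 64.0 and 95.8 FPKM in the day 5 libraries, against 169 and 175 FPKM in the day 0 libraries. Its log2 fold change was -1.12 ± 0.23 (SE, limma adjusted p = 0.0349), and the day 5 libraries differed from each other more than those of day 0. Gars, whose product charges glycine tRNAs in the cytosol and in mitochondria, had 113 and 120.4 FPKM on day 5, against 242 and 232 FPKM on day 0. The day 5 mean of Gars was 0.493 times the day 0 mean (log2 fold change -1.01 ± 0.15 SE, adjusted p = 0.0192), with little spread on either day. Rars, for the arginyl enzyme, had 101 and 99.96 FPKM on day 5, against 186 and 207 FPKM on day 0 (log2 fold change -0.96 ± 0.16 SE, adjusted p = 0.0226).

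Kars encodes the lysyl enzymes of the cytosol and of mitochondria. It had 89.2 and 107 FPKM on day 5, against 189 and 184 FPKM on day 0 (log2 fold change -0.93 ± 0.17 SE, adjusted p = 0.0278). Farsb, the beta subunit of the cytosolic phenylalanyl enzyme, had 62.1 and 64.2 FPKM on day 5, against 112 and 117 FPKM on day 0 (-0.85 ± 0.16 SE, adjusted p = 0.0282). The alpha subunit works in the same complex with equal numbers of both chains. Its gene Farsa had 56.7 and 58.0 FPKM on day 5, against 79.0 and 69.8 FPKM on day 0, and did not pass (-0.37, adjusted p = 0.173). Day 5 was below day 0 in every library for both subunits. The difference between their changes was not tested.

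Sars, for the seryl enzyme, had the highest mean of the 36 genes over the 4 libraries, although Lars2 had the higher mean on day 5. It had 178 FPKM in each day 5 library, against 285 and 328 FPKM in the day 0 libraries (log2 fold change -0.78 ± 0.16 SE, adjusted p = 0.035). Eprs encodes a single chain with the glutamyl and the prolyl activity. It had 89.4 and 88.4 FPKM on day 5, against 155 and 147 FPKM on day 0 (-0.76 ± 0.15 SE, adjusted p = 0.0334). Tars, for the threonyl enzyme, had 84.8 and 80.2 FPKM on day 5, against 143 and 138 FPKM on day 0 (-0.76 ± 0.16 SE, adjusted p = 0.0334). After quantile normalization the log2 fold changes of Sars, Eprs and Tars were -0.50, -0.60 and -0.63, with adjusted p of 0.0841, 0.0587 and 0.0555, and that of Mars was -0.98 with 0.0573.

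Nars, for the asparaginyl enzyme, was the next gene outside the threshold. It had 135 and 122 FPKM on day 5, against 194 and 187 FPKM on day 0, and its log2 fold change was -0.57 ± 0.16 (SE, limma adjusted p = 0.0607). Another 6 cytosolic genes had both day 5 libraries below both day 0 libraries without passing: Cars, Dars, Farsa, Hars, Lars and Wars. With Nars, these 7 genes had log2 fold changes of -0.61 to -0.37 and adjusted p of 0.0607 to 0.173. Yars, for the tyrosyl enzyme, had 52.7 and 41.7 FPKM on day 5 and 72.9 and 50.5 FPKM on day 0, so its groups overlapped.

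The other 4 cytosolic genes had no negative log2 fold change. Aars, for the alanyl enzyme, had 87.6 and 87.1 FPKM on day 5, against 74.5 and 79.0 FPKM on day 0. Its log2 fold change was 0.19 with a 95% interval of -0.21 to 0.58 (limma adjusted p = 0.427), an interval that holds no decrease of the size seen for any of the 10 genes that fell. Qars, for the glutaminyl enzyme, had 178 and 119.8 FPKM on day 5, against 119 and 115 FPKM on day 0 (0.32, adjusted p = 0.354). The day 5 libraries of this gene and of the next 2 stood apart, replicate 1 being the higher each time. Iars, for the isoleucyl enzyme, had 136 and 62.5 FPKM on day 5, on either side of the 88.4 and 95.2 FPKM of day 0 (0.01, interval -0.94 to 0.95). Vars, for the valyl enzyme, had 75.2 and 40.8 FPKM on day 5, against 42.7 and 27.8 FPKM on day 0 (0.67, adjusted p = 0.233). The change of Iars and Vars was thus not resolved by 2 libraries a day.

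**Figure D2:**
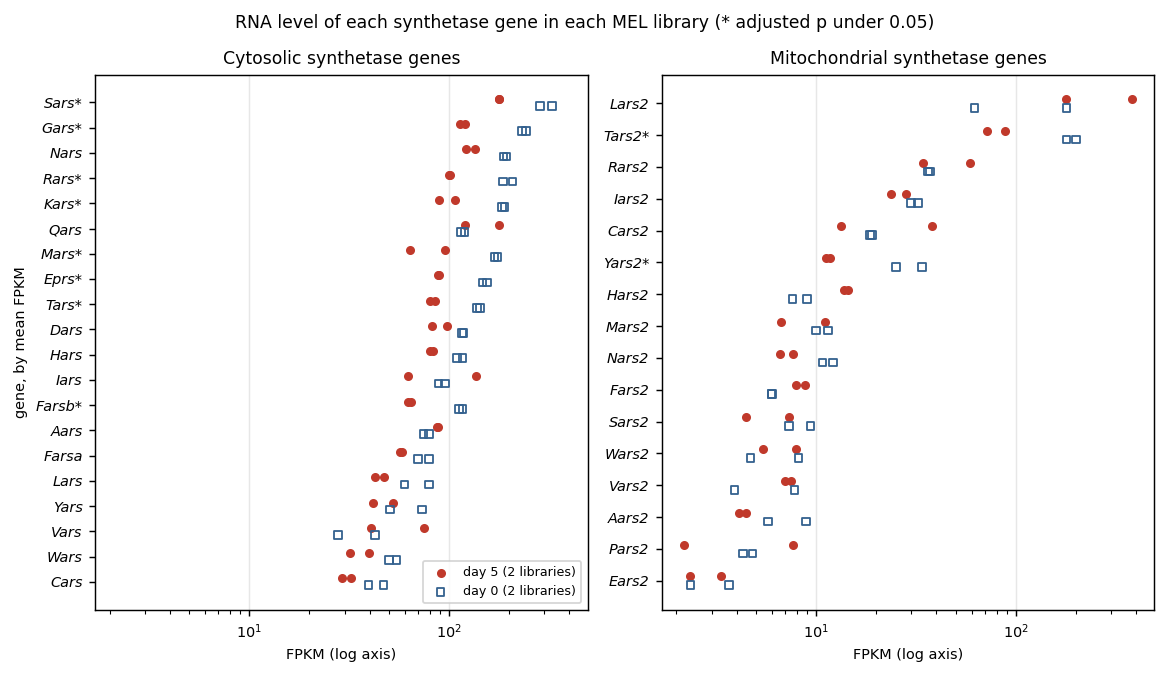
FPKM on a log axis for each synthetase gene (rows, by mean level) in the 2 day 5 libraries (filled circles) and the 2 day 0 libraries (open squares), cytosolic genes on the left and mitochondrial genes on the right. Asterisks mark the 10 genes that passed, and most mitochondrial genes lie under 30 FPKM while every cytosolic gene has a mean above it.

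The cytosolic genes were also grouped by features of their enzymes. In animals 8 of them, Dars, Eprs, Iars, Kars, Lars, Mars, Qars and Rars, encode enzymes held in the multi-synthetase complex. Of these 8 genes 4 fell, with a median log2 fold change of -0.68. Beside this and the counts below, 7.81% of all genes tested fell and 10.7% rose, with a median of 0.15. At a mean of at least 30 FPKM 15.1% of genes fell, and under it 4.03%. Of the 12 cytosolic genes outside the complex 4 fell as well, with a median of -0.51. Synthetases also fall into classes I and II by the fold of their catalytic domain. Of 9 cytosolic class I genes 2 fell (median -0.48), and of 10 class II genes 5 fell (median -0.66), Eprs being left out because its chain joins a class I and a class II enzyme. Among mitochondrial genes 1 of 9 class I and 1 of 7 class II genes fell. None of these splits was tested, and their counts differ by 3 genes at most. Of the cytosolic genes 12 are known to be induced through the stress-responsive transcription factor ATF4: Aars, Cars, Eprs, Gars, Iars, Lars, Mars, Nars, Sars, Tars, Wars and Yars. Of these 5 fell (41.7%) and 0 rose (median -0.59), a share close to the 40% of all 20 cytosolic genes.

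Of the 16 mitochondrial genes 9 had a negative log2 fold change and 7 a positive one, with a median of -0.07. Against the median of all genes tested (0.15), 10 lay below and 6 above. By the adjusted p 2 fell and 0 rose, beside 7.81% and 10.7% of all genes tested. Both day 5 libraries lay below both day 0 libraries for 5 genes and above for 3, beside 27% and 40.2% of all genes. The days overlapped for the other 8. The log2 fold changes ran from -1.27 for Yars2 to 1.30 for Lars2. Without the adjustment Hars2 was the 1 gene that was higher at p under 0.05. Mean levels ran from 2.92 FPKM for Ears2 to 200.4 FPKM for Lars2, with a median of 9.54 FPKM, against 100.3 FPKM for cytosolic genes.

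Tars2, for the mitochondrial threonyl enzyme, had 72.1 and 88.5 FPKM on day 5, against 200.1 and 179 FPKM on day 0. The day 5 mean was 0.423 times the day 0 mean, and the log2 fold change of -1.23 ± 0.18 (SE) had the lowest adjusted p of the 36 genes in limma, 0.0184. On day 0 Tars2 was more abundant than its cytosolic partner Tars, and of the mitochondrial genes only Tars2 and Lars2 exceeded 100 FPKM in any library. Yars2, for the mitochondrial tyrosyl enzyme, had 11.2 and 11.8 FPKM on day 5, against 33.9 and 25.0 FPKM on day 0 (log2 fold change -1.27 ± 0.24 SE, adjusted p = 0.0291). Both genes also passed after quantile normalization.

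Lars2, for the mitochondrial leucyl enzyme, varied more between replicates than any other member with a mean over 30 FPKM. It had 179 and 381 FPKM on day 5, against 179 and 62.0 FPKM on day 0, so that replicate 1 of both days had nearly the same level. Its log2 fold change was 1.30 ± 0.59 (SE, limma adjusted p = 0.169) and moved to 2.06 without day 0 replicate 1 and to 0.54 without day 0 replicate 2. It was positive in all 12 alternatives, but its size rested on single libraries. Cars2 and Pars2 also had day 5 libraries that differed by more than 2 times. Cars2, for the cysteinyl enzyme, had 13.3 and 38.0 FPKM on day 5, on either side of the 18.6 and 19.0 FPKM of day 0. Pars2, for the prolyl enzyme, had 2.19 and 7.63 FPKM on day 5 and 4.81 and 4.30 FPKM on day 0.

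Hars2, for the mitochondrial histidyl enzyme, had 14.4 and 13.8 FPKM on day 5, against 8.97 and 7.61 FPKM on day 0 (log2 fold change 0.70 ± 0.24 SE, limma adjusted p = 0.0903). Its cytosolic partner Hars had 79.8 and 83.3 FPKM on day 5, against 109 and 117 FPKM on day 0 (-0.46 ± 0.16 SE, adjusted p = 0.0925). The groups did not overlap in either gene, and neither passed. In the RefSeq annotation of GRCm38.p6 both genes are neighbours and overlap each other, the 1 such pair among the 36. The libraries were stranded, but the sources used here do not say if the FPKM were computed by strand, so reads of the overlap may not be told apart. Among the other mitochondrial genes Nars2, Aars2 and Iars2 had both day 5 libraries below day 0, with log2 fold changes of -0.62, -0.63 and -0.26 and limma adjusted p of 0.131, 0.1999 and 0.375, and Fars2 had both above (0.42, adjusted p = 0.27). Ears2, Mars2, Rars2, Sars2, Vars2 and Wars2 overlapped between the days, with log2 fold changes of -0.46 (Sars2) to 0.32 (Vars2).

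Summed over the 20 cytosolic genes, the level was 1717 ± 93.9 FPKM on day 5 and 2548 ± 17.7 FPKM on day 0 (SD, n = 2 each), 0.674 times as high. The summed cytosolic share of all FPKM was 0.226% and 0.211% in day 5 libraries and 0.33% and 0.334% in day 0 libraries. The 16 mitochondrial genes summed to 404 and 676 FPKM on day 5, and to 575 and 422 FPKM on day 0, so the days overlapped. Lars2 and Tars2 made up most of that sum. Lars2 alone made up 44.3% and 56.4% of it in day 5 libraries, against 31.2% and 14.7% in day 0 libraries, and Tars2 made up 17.8% and 13.1% in day 5 libraries, against 34.8% and 42.5% in day 0 libraries. Without both genes the mitochondrial sum was 153 and 206 FPKM on day 5 and 196 and 180.5 FPKM on day 0.

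**Figure D3:**
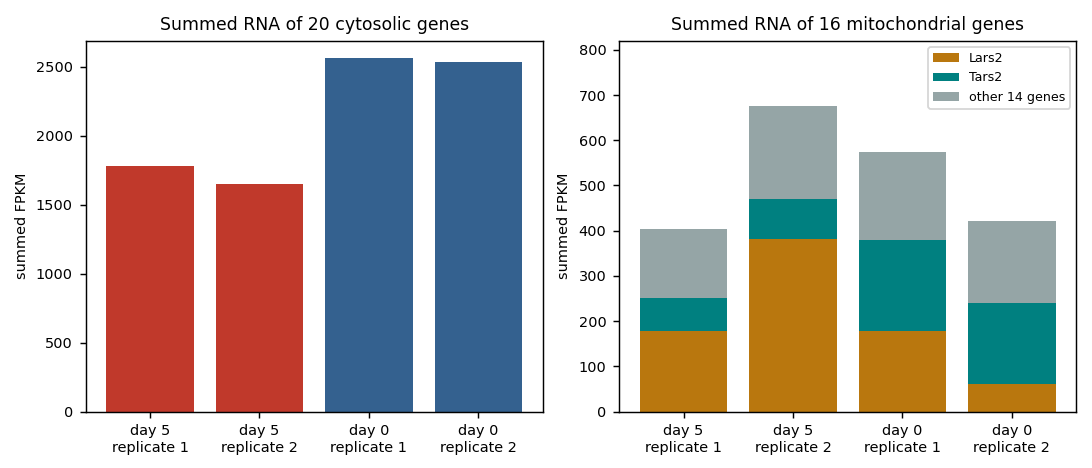
Summed FPKM of the 20 cytosolic genes (left) and the 16 mitochondrial genes (right, with Lars2, Tars2 and the other 14 stacked) in each library, day 5 before day 0. The cytosolic sums of both day 5 libraries (1784 and 1651) lie below those of day 0 (2560.1 and 2535), and the mitochondrial sums of the days overlap.

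The compartments were then compared amino acid by amino acid, over 17 pairs of a cytosolic and a mitochondrial gene, in which Eprs and Fars2 each appear in 2 pairs. In 11 pairs the log2 fold change of the cytosolic gene was the lower one. The ratio of cytosolic to mitochondrial FPKM was lower in both day 5 libraries than in both day 0 libraries in 8 pairs. It was higher in 3 and overlapped in 6. Both pairs with Fars2 are among the 8. Ratios of other gene pairs were not computed, so no background share stands beside these counts. Some of the 8 were barely apart. The Mars to Mars2 ratio was 5.79 and 14.3 on day 5, against 14.7 and 17.5 on day 0. The Wars to Wars2 ratio was 5.03 and 5.90 on day 5, against 11.6 and 6.15 on day 0. The Lars to Lars2 pair, also among the 8, rests on Lars2 libraries that differed by more than 2 times within each day. The Farsb to Fars2 ratio was 7.79 and 7.25 on day 5, against 18.7 and 19.4 on day 0. The Hars to Hars2 ratio was 5.53 and 6.04 on day 5, against 12.2 and 15.3 on day 0, and the Rars to Rars2 ratio was 2.95 and 1.70 on day 5, against 5.13 and 5.60 on day 0. The opposite order held for alanine, threonine and tyrosine, where the mitochondrial gene had the more negative log2 fold change. For tyrosine the Yars to Yars2 ratio was 4.71 and 3.54 on day 5, against 2.15 and 2.02 on day 0. With 2 libraries a day, an exact permutation test of 1 ratio cannot go below 0.33 (two-sided), and no p-value is given for these pairs.

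**Figure D4:**
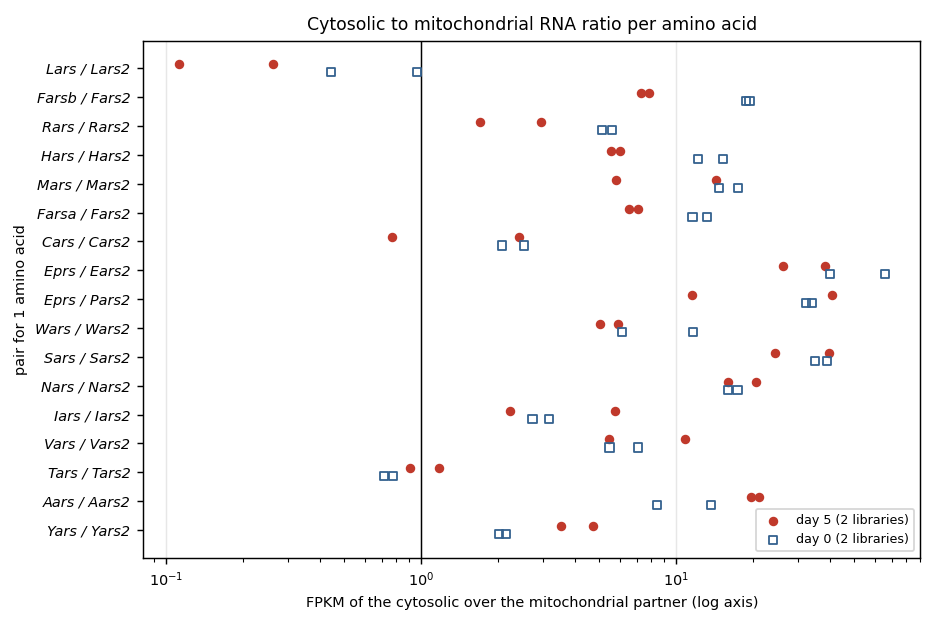
Ratio of FPKM of the cytosolic to the mitochondrial gene for each amino acid, on a log axis, in the 2 day 5 libraries (filled circles) and the 2 day 0 libraries (open squares). The ratio is lower on day 5 without overlap in 8 of 17 pairs and higher in 3 (Aars, Tars and Yars with their partners). Some of the 8 are barely apart, and no background share was computed.

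Over all members the difference between the median log2 fold changes of cytosolic and mitochondrial genes was -0.49. It shrank to -0.17 after quantile normalization, where the cytosolic median was -0.52, the mitochondrial median -0.35 and the median of all genes 0.01 in place of 0.15. Set against the median of all genes, the cytosolic median was lower by 0.71 and the mitochondrial one by 0.22 with the deposited scaling, and by 0.54 and 0.37 after quantile normalization. Leaving out day 5 replicate 2 gave -0.30, as did leaving out day 0 replicate 1, while leaving out day 5 replicate 1 gave -0.66. The size of the difference between compartments therefore depends on the scaling and on single libraries, and it was not tested. A 12.5% share of mitochondrial genes fell, against 40% of cytosolic genes, but mitochondrial genes were also less abundant. Of all genes tested 7.81% fell. Gars and Kars, which serve both compartments, are counted as cytosolic here, and both fell. Without them 6 of 18 cytosolic genes fell (33.3%), with a median log2 fold change of -0.51. Only 3 mitochondrial genes averaged 30 FPKM or more, and 1 of these (Tars2) fell.

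Promoters are shown because several cytosolic genes fell together. RefSeq sequences of GRCm38.p6 (250 bases before to 50 bases after the annotated start) were at hand for 27 of the 36 genes, 1 of them (Mars) under its newer symbol. A pair of motifs was searched on both strands: TGATGNAA, the composite element bound by ATF4 with C/EBP factors, and CACGTG, the E box bound by Myc and its relatives. Copies of the 2 motifs overlapped in no member. TGATGNAA was found in 5 genes, Aars, Gars, Iars, Tars and Yars, and CACGTG in 5, Aars, Ears2, Farsb, Iars and Tars. For the first motif that is 5 of 13 cytosolic genes (38.5%) and 0 of 14 mitochondrial genes, beside 3.97% of all 32851 promoter windows. For the second it is 4 of 13 cytosolic genes (30.8%) and 1 of 14 mitochondrial genes (7.14%), beside 7.15% of all windows. Of the 9 genes that fell and had a window, 2 held each motif (22.2%). Among the 18 other genes 3 held each (16.7%). Gars and Tars, which fell, and Aars, Iars and Yars, which did not pass, thus share the first motif. The 150 bases before the annotated start follow for Gars, Tars, Aars and Iars, with motifs in capitals. They also follow for Farsb with an E box and for the mitochondrial pair that fell. Yars, whose copy lies behind the start, is not printed. The copies of Iars (TGATGNAA) and Tars (CACGTG) that lie behind the start, and the second copy of TGATGNAA in Aars, are not shown. A match is a run of letters and not a bound site.
Gars promoter, chr6:55037851-55038000, plus strand: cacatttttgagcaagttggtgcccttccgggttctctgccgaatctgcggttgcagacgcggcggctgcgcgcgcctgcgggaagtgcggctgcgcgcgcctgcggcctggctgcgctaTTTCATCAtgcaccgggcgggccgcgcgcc
Tars promoter, chr15:11399659-11399808, minus strand: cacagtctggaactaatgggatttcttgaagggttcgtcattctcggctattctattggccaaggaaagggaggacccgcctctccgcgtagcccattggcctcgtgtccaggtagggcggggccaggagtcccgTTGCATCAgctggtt
Aars promoter, chr8:111033692-111033841, plus strand: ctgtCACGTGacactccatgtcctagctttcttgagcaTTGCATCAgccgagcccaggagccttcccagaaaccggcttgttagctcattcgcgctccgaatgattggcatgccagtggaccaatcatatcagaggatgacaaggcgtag
Iars promoter, chr13:49681980-49682129, plus strand: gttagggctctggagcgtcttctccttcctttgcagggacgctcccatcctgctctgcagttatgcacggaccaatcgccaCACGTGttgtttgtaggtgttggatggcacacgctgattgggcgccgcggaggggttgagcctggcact
Farsb promoter, chr1:78488898-78489047, minus strand: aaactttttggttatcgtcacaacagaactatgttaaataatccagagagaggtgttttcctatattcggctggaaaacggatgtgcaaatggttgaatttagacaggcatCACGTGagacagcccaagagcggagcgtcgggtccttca
Tars2 promoter, chr3:95754978-95755127, minus strand: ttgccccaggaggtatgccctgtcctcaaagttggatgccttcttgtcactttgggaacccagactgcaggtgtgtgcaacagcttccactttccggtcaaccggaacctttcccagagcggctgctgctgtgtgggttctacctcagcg
Yars2 promoter, chr16:16302815-16302964, plus strand: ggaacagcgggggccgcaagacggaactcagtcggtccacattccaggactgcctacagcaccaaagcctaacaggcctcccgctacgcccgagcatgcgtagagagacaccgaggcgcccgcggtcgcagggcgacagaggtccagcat

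Read with the values above, the TGATGNAA copies of Gars and Tars lie 30 and 15 bases before the start, and that of Aars lies 112 bases before it. The log2 fold changes of these 3 genes were -1.01, -0.76 and 0.19. For Iars and Yars, whose copies lie behind the start, the log2 fold changes were 0.01 and -0.37. Tars2 and Yars2, with decreases as large as any cytosolic gene, held neither motif in the window.

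Genes that work beside the synthetases were examined in lists of their own. Their counts stand beside the 7.81% of all genes tested that fell and the 10.7% that rose. At a mean of at least 30 FPKM 15.1% fell and 11% rose, and under it 4.03% fell and 10.6% rose. Of the 3 non-enzymatic parts of the multi-synthetase complex 2 fell. Eef1e1 (p18) had 30.1 and 41.2 FPKM on day 5, against 116 and 126 FPKM on day 0 (log2 fold change -1.75 ± 0.21 SE, limma adjusted p = 0.0128). Aimp1 (p43), which binds tRNA, had 49.1 and 59.0 FPKM on day 5, against 124 and 122 FPKM on day 0 (-1.18 ± 0.18 SE, adjusted p = 0.0185). These log2 fold changes lay below those of all 8 cytosolic synthetase genes that fell, Mars having the lowest of these at -1.12, and the difference was not tested. Aimp2 (p38) had 36.3 and 52.1 FPKM on day 5 and 72.0 and 53.6 FPKM on day 0 (-0.51, adjusted p = 0.211).

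Of 6 genes for tRNA export and delivery 2 fell and 0 rose. Eef1d and Eef1g are subunits of the factor that reloads the elongation factor eEF1A, the carrier of charged tRNA to the ribosome. Eef1d had 235 and 199 FPKM on day 5, against 463 and 366 FPKM on day 0 (log2 fold change -0.93, limma adjusted p = 0.0362), and Eef1g had -0.74 with an adjusted p of 0.0495, at the edge of the threshold. Neither passed after quantile normalization, and Eef1g did not pass with the replicate block or a pseudocount of 0.1 either. Eef1a1, eEF1A itself, had 7562 and 6768 FPKM on day 5, against 6156 and 5221 FPKM on day 0 (0.34, adjusted p = 0.341). Among synthetase relatives and proofreading genes Prorsd1, a relative of the editing domain of prolyl enzymes, fell. It had 17.1 and 12.7 FPKM on day 5, against 32.1 and 33.8 FPKM on day 0 (-1.11, adjusted p = 0.0349).

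Of 17 tRNA processing genes tested only Trnt1 passed, 5.88% of the list and no more than the 7.81% of all genes that fell. It adds the CCA end on which the amino acid is placed, and it fell to 41.1 and 44.0 FPKM on day 5, against 73.3 and 79.1 FPKM on day 0 (log2 fold change -0.82, limma adjusted p = 0.0335). Of 21 genes for transcription of tRNA genes by polymerase III 0 fell and 1 rose, with a list median of -0.16. The 1 was Polr3gl, the paralog of the Polr3g subunit, with 43.2 and 28.6 FPKM on day 5, against 11.7 and 9.72 FPKM on day 0 (1.63, adjusted p = 0.0234). Of 12 mitochondrial translation factor genes 2 fell: Tufm, the mitochondrial elongation factor that carries charged tRNA, had -1.16 (adjusted p = 0.0315), and Tsfm, which reloads it, had -1.05 (adjusted p = 0.0302). Of 4 genes for selenocysteinyl-tRNA, Sephs2, which makes the selenium donor, fell (-0.84, adjusted p = 0.0414).

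ATF4 is a transcription factor made when translation is under stress, and its known targets include many cytosolic synthetases. Of 26 ATF4 response genes tested 7 fell (26.9%) and 2 rose, with a median log2 fold change of -0.33. Of all genes tested 7.81% fell and 10.7% rose, and of those with a mean of at least 30 FPKM 15.1% fell and 11% rose. All of the 7 but Stc2 had means above 30 FPKM on both days. Psat1 and Phgdh, also among the 7, did not pass after quantile normalization or without the variance trend. Among the genes that passed, the largest decreases were those of Stc2 (-2.21), Shmt2 (-1.50), a mitochondrial serine and glycine enzyme, and Mthfd2 (-1.07), its neighbour in folate metabolism. Ppp1r15a, which restores translation after stress, had 53.8 and 61.1 FPKM on day 5, against 19.1 and 15.5 FPKM on day 0 (1.68), and Atf5 rose as well (1.07). Atf4 itself, named after its value was seen, had 267 and 265 FPKM on day 5, against 462 and 396 FPKM on day 0 (-0.68, limma adjusted p = 0.0466), and did not pass after quantile normalization, with the replicate block, with a pseudocount of 0.1, without the variance trend, with no filter or with any library left out. Asns, for asparagine synthetase, had 279 and 312 FPKM on day 5, against 354 and 334 FPKM on day 0 (-0.22, adjusted p = 0.359), and was likewise named after its value was seen.

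**Figure D5:**
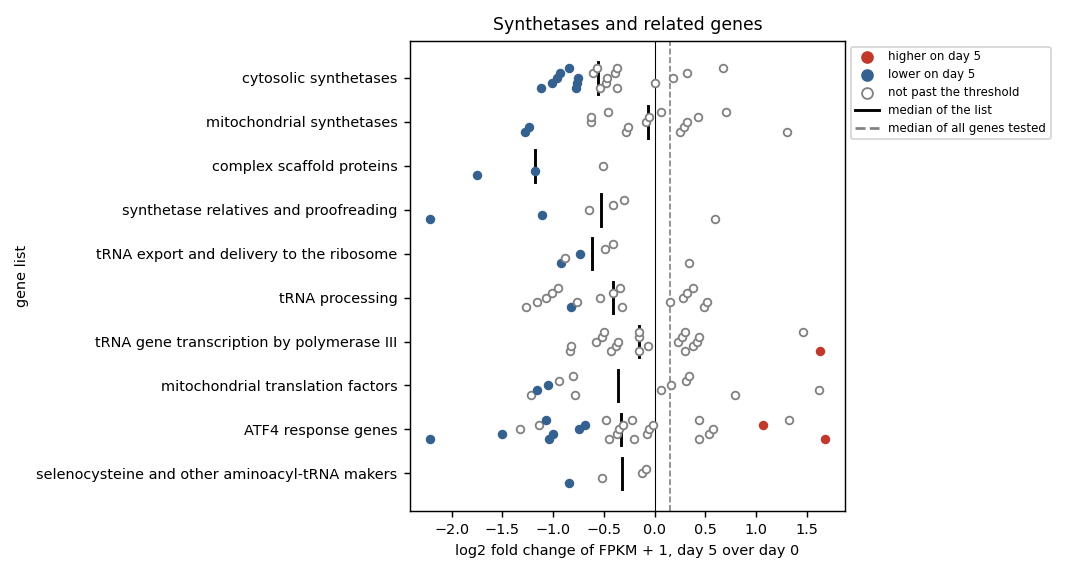
Log2 fold change of FPKM + 1, day 5 over day 0, for each tested gene of 10 lists (points), with the list median as a black bar and the median of all genes tested as a dashed line. Red and blue points passed an adjusted p of 0.05 upward and downward: blue points lie in 9 lists and red points in the polymerase III and ATF4 lists.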

How the data were processed

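RNA was measured in 4 libraries of MEL cells, 2 per day, grouped by their titles. The authors deposited FPKM per gene and library in 1 table. Per the submitters' processing notes, Bowtie and mm9 were used; the sources used here name no quantifier. FPKM hold no read counts, so the depth of a value is unknown and counting error could not be given. The deposited PU.1, DNase and ChIA-PET regions carry mm9 coordinates without gene names and were not used here.

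The filter of 1 FPKM in 2 or more libraries left 10736 of 26599 genes. Day 5 was compared with day 0 on log2(FPKM + 1) with a moderated linear model (limma 3.58.1, R 4.3.3, variance trend on, two-sided tests) and Benjamini-Hochberg adjustment over all genes tested. The log2(FPKM + 1) scale understates the change of low genes. The members and gene lists were chosen with earlier results of these data known. Members that passed, the 5 most abundant members and members whose libraries of 1 day differed by more than 2 times were named with every value, and up to 3 passing genes in each direction of each other list; other names are given for comparison, and some genes of the lists are not reported here. Across genes, the deviations of same-numbered libraries from their day means had a correlation of 0.048. That value cannot show if the libraries were paired, and the main fit held no replicate block. The fit was tested on simulated data, and 12 alternatives were run.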

Additional observations from a re-analysis of the deposited data

How the results depend on the processing

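The 10 synthetase genes that fell kept a negative log2 fold change in all 12 alternatives, which is no sign of stability since their days do not overlap. A pseudocount of 0.1, a filter at 5 FPKM, and leaving out globin or mitochondrially encoded genes kept all 10 past the threshold, as did the replicate block (10 lower, 0 higher). Leaving out globin or mitochondrially encoded genes moved the cytosolic median log2 fold change to -0.53 each. With no filter on low values 2 synthetase genes fell, 2 cytosolic and 0 mitochondrial (17 lower and 2 higher at an unadjusted p under 0.05 in limma), while over all genes 120 rose and 117 fell. After quantile normalization 6 fell, 4 of them cytosolic, and the cytosolic and mitochondrial medians were -0.52 and -0.35. Without the trend in limma 4 fell, 2 of them cytosolic. With 1 library left out, the lone library of its day being assumed to vary like the other day, 0 synthetase genes passed in limma (0 cytosolic and 0 mitochondrial), and over all genes 0 to 2 rose and 0 to 11 fell. The cytosolic median then ranged from -0.66 to -0.49 and the mitochondrial one from -0.20 to -0.0014, with Lars2 between 0.54 and 2.06. Of the 20 genes of the other lists that passed, 1 passed with no filter, 15 after quantile normalization, 18 with the replicate block (Atf4 and Eef1g missing the threshold) and 0 with any library left out. The causes were not tested. The comparisons planned for open chromatin, PU.1 peaks and polymerase II contacts at synthetase promoters were not run, since no mm9 gene positions were used here.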
